A study of Arabidopsis thaliana with 72 samples.

Results

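Flowering repressors of the FLC clade, with SVP and FRI, were followed through all 24 groups of an RNA-seq series on hybrid vigor in Arabidopsis thaliana, from a table of raw counts per gene. These 8 genes, of 37336 in the table, were chosen by locus: FLC (AT5G10140), its relatives FLM (AT1G77080, also MAF1), MAF2 (AT5G65050), MAF3 (AT5G65060), MAF4 (AT5G65070) and MAF5 (AT5G65080), the partner gene SVP (AT2G22540), and FRI (AT4G00650). Rosette leaves of 25-day-old plants grown in long days had been collected for 72 libraries, 3 of each group. The groups were the reciprocal F1 hybrids WsxLer, LerxWs, ColxLer and LerxCol, the F7 Hybrid Mimic lines WL_HM1 to WL_HM7 and CL_HM1 to CL_HM6, the F7 small lines wl_sml1, wl_sml2, cl_sml1 and cl_sml2, and the parents Wassilewskija (Ws), Columbia (Col) and Landsberg erecta (Ler). Hybrid Mimics are inbred lines selected over generations from F2 plants for a large rosette like that of the F1, and the small lines were selected for a small rosette. For both, flowering within the parental range was a further criterion. The study reports that flowering still diverged during selection, with small plants near the early parent or earlier and large plants near the late parent. A library of a parent or an F1 pooled leaves of 3 plants, whereas each F7 library came from 1 plant, so that the 3 libraries of a line are sister plants. CL_HM5 and CL_HM6 were left out by the study for their plant size and are kept apart here in the tests against the mid-parent value (MPV).

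FLC encodes a MADS-box protein that represses the floral integrators FT and SOC1 in leaf and apex, and SVP encodes the partner with which FLC, FLM and MAF proteins act. FRI activates FLC in winter-annual accessions, and the autonomous and vernalization pathways silence it. FLM lies alone on chromosome 1 and is spliced into forms of different activity with temperature, which counts per gene cannot tell apart, while MAF2 to MAF5 form a tandem cluster on chromosome 5. The question put to the counts was which parental level each F7 line carries for each gene. No sequence is given, since the reference at hand, TAIR10.1, is not the assembly the reads were counted on.

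The total per library was between 17741358 and 28527725 counts (median 20432113). Levels are given as normalized counts, scaled by TMM to a common library size of 20812333, with SD over 3 libraries, and genes were called by edgeR's quasi-likelihood test where the adjusted p was 0.05 or less. The leaf genes RBCS1A, RCA and LHCB1.3 were high in every library (lowest values 113694, 71927 and 251544). The 7 marker genes of flowers and the shoot apex (AG, AP3, PI, SEP3, AP1, STM and WUS) summed to 410 to 481 in 3 libraries, replicate 2 of WL_HM6, of LerxWs and of wl_sml2, against 20.4 to 193 in the other 69, with WUS at 0 in 69 libraries. PYK10, a marker of roots, had 5.8 to 1038 normalized counts (median 236). In leaf tissue, fewer cells that express a gene and less RNA per cell cannot be told apart.

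Of the 8 genes, 6 reached 50 counts in at least 1 library and were tested, and FLC and MAF4 were not. FLC had 0 counts in 62 of 72 libraries and at most 3 in any, 15 counts in all, in every parent, hybrid and line alike. In the TAIR10.1 annotation, 68.1% of the exonic bases of FLC are covered by a non-coding gene on the opposite strand, AT5G01675, which had at most 1 count. Of protein-coding genes covered for 95% or more of their exons in this way, 450 of 452 (99.6%) had at most 3 counts in every library, against 364 of 584 (62.3%) of those covered from 50% to under 95% and 4291 of 20818 (20.6%) of those not covered. The strand setting of the counting is not stated, so low expression of FLC in these leaves and loss of its reads in counting cannot be told apart. FRI has 9.995% of its exonic bases covered and the other members none.

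MAF4 had 0 to 33 counts in a library, 514 in all, and was above 10 normalized counts mainly in Col and its descendants. Its mean was 17.3 ± 9.0 in Col, against 1.6 ± 2.1 in Ler and 4.6 ± 3.4 in Ws. It had 18.0 ± 3.2 in ColxLer and 16.5 ± 10.5 in LerxCol, and 14.4 ± 3.5 in CL_HM1, 18.8 ± 3.2 in CL_HM2, 23.0 ± 7.3 in CL_HM5 and 18.2 ± 6.3 in CL_HM6. The other 4 Col/Ler lines had means of 0.82 to 3.9, near Ler, and the Ws/Ler groups means of 0.65 to 8.6. In counts per kb of annotated exon, SVP stood highest of the members in the parents (1821 in Ws, 1412 in Col, 1422 in Ler), MAF2 and MAF3 lay at 166 to 268, and FRI at 47.7 in Ws, 48.9 in Col and 10.8 in Ler.

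The parents differed in 4 of the 6 tested genes. FRI was lower in Ler than in either other parent. Its 3 libraries had 92.3, 95.8 and 115.5 normalized counts in Ws and 108.4, 112.7 and 90.3 in Col, against 29.8, 19.4 and 19.3 in Ler, with no overlap (Ws over Ler, log2 2.14, SE 0.24, adjusted p = 0.000214; Col over Ler, log2 2.18, SE 0.24, adjusted p = 0.000202). Both Col and Ler are known to carry FRI alleles that do not activate FLC, that of Ler with a deletion that takes away the start of the gene. FLM had 542, 576 and 654 normalized counts in Ws and 642, 661 and 692 in Col, against 118, 137 and 197 in Ler. It was higher than in Ler by 1.96 on the log2 scale in Ws (SE 0.17, adjusted p = 5.14e-05) and by 2.14 in Col (SE 0.17, adjusted p = 2.92e-05). MAF5 was high in Col alone, with 43.1, 147 and 118 normalized counts, against 14.4, 5.8 and 5.2 in Ws and 2.0, 8.6 and 13.6 in Ler (Col over Ler, log2 3.61, SE 0.65, adjusted p = 0.0049; Ws over Col, log2 -3.59, SE 0.65, adjusted p = 0.00408). MAF5 passed the limit of 50 counts in the parents through Col alone and FRI through Ws and Col, so a difference in these genes was built into their passing.

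MAF2 was lower in Ws than in Ler (571, 713 and 573 against 748, 796 and 1175 normalized counts, log2 -0.55, SE 0.17, adjusted p = 0.0448), where the third Ler library stood above the other 2. That call was lost without Ler replicate 2 (log2 -0.64, adjusted p = 0.0593), Ler replicate 3 (-0.33, adjusted p = 0.0587), Ws replicate 1 (-0.50, adjusted p = 0.112) or Ws replicate 3 (-0.50, adjusted p = 0.102), with the replicate number as a block (adjusted p = 0.0886) and in a fit of only these 6 libraries (adjusted p = 0.122). MAF2 in Col, at 684 ± 15, was not called against Ler (log2 -0.41, adjusted p = 0.145). MAF3 and SVP were called in no pair of parents (adjusted p 0.0943 to 0.981), with SVP at 3262 ± 584 in Ws, 2528 ± 53 in Col and 2548 ± 657 in Ler, though SVP was called for Ws against Ler without Ler replicate 3 (log2 0.56, adjusted p = 0.0277). MAF4 was called for Col against Ler when the filter on low counts was dropped (log2 3.35, SE 0.86, adjusted p = 0.0242). Over all genes tested, 20.7% were called for Ws against Ler, 14.4% for Col against Ler and 24.1% for Ws against Col, beside 3, 3 and 1 of 6 members. Of the targets, FT was higher in Ws than in Col by 1.74 on the log2 scale (SE 0.52, adjusted p = 0.0382) and SOC1 by 1.17 (SE 0.27, adjusted p = 0.0124), and neither was called against Ler. SOC1 was called against Ler in Ws without Ler replicate 3 (log2 0.68, adjusted p = 0.0256) and in Col without Ler replicate 1 (log2 -1.06, adjusted p = 0.0304), by DESeq2 (-0.86, adjusted p = 0.0125) and with total-count scaling (-0.86, adjusted p = 0.0388).

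**Figure D1:**
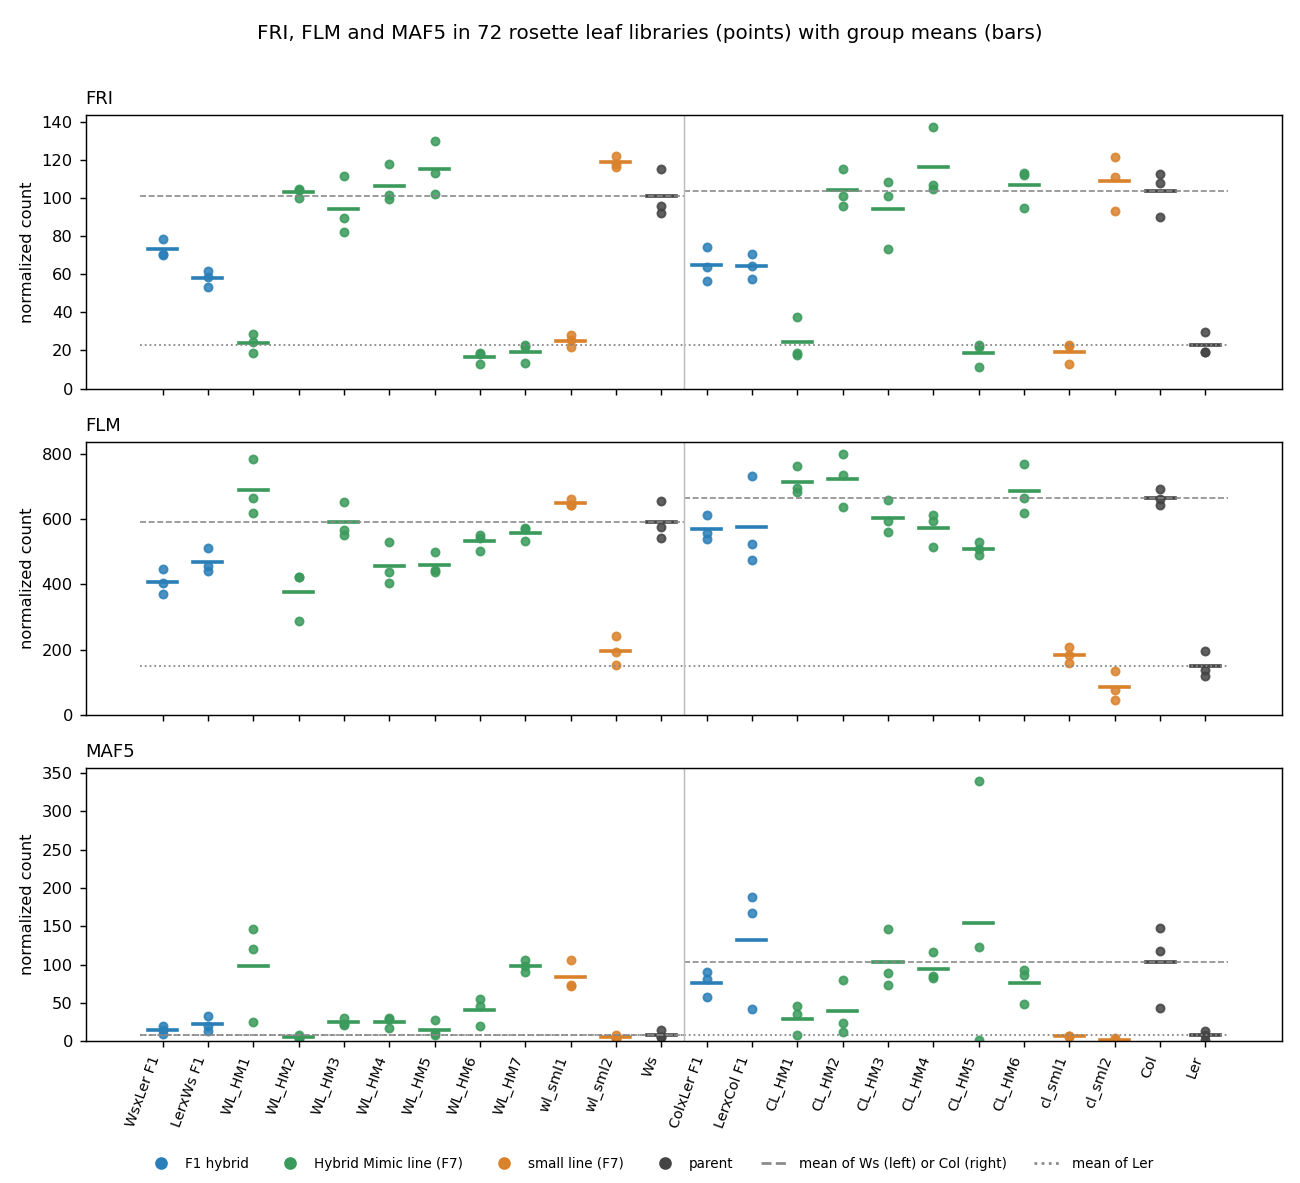
Normalized counts of FRI, FLM and MAF5 (vertical axes) in each of the 72 libraries (points) by group, with group means as bars; Ws/Ler groups stand on the left and Col/Ler groups and Ler on the right, and dashed and dotted lines mark the parental means. FRI fell into 3 tiers, with 7 lines near Ler, the F1 hybrids between the parents and 10 lines near Ws or Col, while FLM was low only in wl_sml2, cl_sml1, cl_sml2 and Ler.

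In the F1 hybrids FRI lay near the MPV, while the means of MAF5 and FLM lay above it. MAF5 averaged 18.4 ± 8.2 in Ws/Ler F1 and 104 ± 60 in Col/Ler F1 (SD, n = 6 each). The MPV libraries had 7.0 to 9.0 in Ws/Ler and 22.0 to 77.9 in Col/Ler. No member was called against the MPV in either system, where 0.281% of all genes were called in Ws/Ler (51 of 18146) and 0.407% in Col/Ler (73 of 17919). At an unadjusted p at or under 0.05, MAF5 (log2 1.20, SE 0.47) and SVP (log2 -0.18, SE 0.08) passed in Ws/Ler, and FLM (log2 0.50, SE 0.17) and MAF3 (log2 -0.19, SE 0.08) in Col/Ler, and DESeq2 called 0 of 6 in either system. FRI had 53.5 to 78.4 normalized counts in the 6 Ws/Ler F1 libraries (median 66.2) and 56.7 to 74.5 in the 6 Col/Ler F1 libraries (median 64.0), against MPV means of 61.4 and 63.1. All 12 F1 libraries lay above the Ler libraries and below the Ws and Col libraries. FLM averaged 439 ± 48 in Ws/Ler F1 and 573 ± 90 in Col/Ler F1 (SD, n = 6 each), against MPV means of 367 and 406, and FLM was called in both systems when the MPV was taken on the log scale (log2 0.55 with adjusted p = 0.00408, and log2 0.84 with adjusted p = 2.94e-06). Between the reciprocal crosses 0 of 12 member tests were called, with 0 at an unadjusted p at or under 0.05 and 0 called by DESeq2 (widest difference MAF5, log2 -0.80 for ColxLer over LerxCol, SE 0.66), where 0.0164% of all genes were called for WsxLer against LerxWs and 0.0% for ColxLer against LerxCol (208 genes at an unadjusted p at or under 0.05, and 2 called by DESeq2).

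FRI split the F7 lines cleanly into a low and a high class. In Ws/Ler, WL_HM1 had 28.5, 24.3 and 18.7 normalized counts, WL_HM6 18.8, 13.1 and 18.3, WL_HM7 22.7, 21.7 and 13.7, and wl_sml1 28.1, 21.8 and 25.4. The high class held WL_HM2 with 104, 100.2 and 105, WL_HM3 with 89.6, 112 and 82.1, WL_HM4 with 99.9, 118 and 102, WL_HM5 with 130.5, 113 and 102.5, and wl_sml2 with 116, 118 and 122. No library of 1 class overlapped the other, and in each line all 3 plants lay on the same side. Each low line was called against Ws (log2 -2.60 to -1.99, largest adjusted p = 1.69e-10) and not against Ler, and each high line against Ler (log2 2.05 to 2.39, largest adjusted p = 1.89e-10) and not against Ws.

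The Col/Ler lines showed the same 2 classes of FRI. CL_HM1 had 37.7, 17.7 and 18.5 normalized counts, CL_HM5 21.8, 22.8 and 11.5, and cl_sml1 22.7, 13.0 and 22.5. CL_HM2 had 96.1, 116 and 101, CL_HM3 101, 108.5 and 73.1, CL_HM4 105, 107 and 137.5, CL_HM6 112, 94.99 and 113, and cl_sml2 111, 93.6 and 122. The 3 low lines were called against Col and not against Ler, and the 5 high lines the reverse. FRI reached 50 counts in 48 of 72 libraries, none of them from Ler or from a low line of either system. It was tested only through groups where it was higher, so its calls against the parents in both systems are a description. FRI was thus at the Ler level in 5 of 13 Hybrid Mimics and in 1 of 2 small lines of each system. Against the MPV it was called in all 17 lines, between log2 -1.90 in WL_HM6 (SE 0.19) and log2 0.97 in wl_sml2 (SE 0.17). The smallest of these, CL_HM3 (log2 0.58, adjusted p = 0.0494), was lost with the replicate number as a block (adjusted p = 0.0564) and with total-count scaling (adjusted p = 0.0518), and without any of 5 single libraries (log2 0.46 to 0.64). WL_HM3 was lost without its replicate 2 (log2 0.48, adjusted p = 0.106) or without MPV replicate 1 or 2, CL_HM2 without its replicate 2 (log2 0.65, adjusted p = 0.0872) or MPV replicate 3 (adjusted p = 0.0943), and CL_HM6 without MPV replicate 3 (log2 0.67, adjusted p = 0.061). WL_HM3 and CL_HM3 were also lost in a fit of only the groups compared.

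FLM was at or near the level of the larger-count parent in all Hybrid Mimics but WL_HM2, and at or below that of Ler in 3 of 4 small lines. WL_HM1 had 664, 782 and 619 normalized counts, WL_HM3 566, 550 and 653, WL_HM6 541, 503 and 550, WL_HM7 572, 531 and 569, and wl_sml1 643, 642 and 661. WL_HM4 had 529, 438 and 403 and WL_HM5 499, 444 and 436. All 7 of these lines were called against Ler (log2 1.58 to 2.20) and not against Ws. On a log2 scale from Ler (0) to Ws (1), WL_HM4 and WL_HM5 lay at 0.81 and 0.82, near the F1 at 0.78. Each had 0 of 3 plants within the range of Ws. The others of these 7 lines lay at 0.92 to 1.11. WL_HM2, with 423, 289 and 421, was called against both parents (log2 1.32 over Ler, adjusted p = 5.12e-07; log2 -0.65 over Ws, adjusted p = 0.0027), and its call against Ws was lost without the libraries numbered 2 (log2 -0.50, adjusted p = 0.156). The small line wl_sml2 had 241, 193 and 154 and was called against Ws (log2 -1.58, adjusted p = 5.04e-10) and not against Ler, unless the libraries numbered 3 were left out (log2 0.78, adjusted p = 0.00159). WL_HM4, at log2 -0.39 from Ws, was called against Ws by DESeq2, with total-count scaling and without the libraries numbered 1, and wl_sml2 was called against Ler with total-count scaling. Against the MPV, FLM rose in 5 Ws/Ler lines, of which WL_HM6 was lost without MPV replicate 1 (log2 0.42, adjusted p = 0.0529), and fell in wl_sml2 (log2 -0.89).

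In Col/Ler, FLM separated the Hybrid Mimics from the small lines. CL_HM1 had 694, 763 and 682 normalized counts, CL_HM2 799, 734 and 635, CL_HM3 593, 658 and 561, CL_HM4 514, 593 and 613, CL_HM5 509, 490.5 and 528, and CL_HM6 618, 769 and 665. The small lines cl_sml1 and cl_sml2 had 183, 207 and 160 and 45.6, 76.0 and 134. All 18 Hybrid Mimic plants lay above all 6 small plants. All 6 Hybrid Mimics were called against Ler (log2 1.76 to 2.25) and not against Col, though CL_HM5 was called below Col in a fit of only these groups (log2 -0.39, adjusted p = 0.0163). On the scale from Ler to Col, CL_HM4 and CL_HM5 lay at 0.90 and 0.82, beside 0.89 in the F1. The other Hybrid Mimics lay at 0.93 to 1.05. The line cl_sml1 was at the Ler level, though called against Ler with total-count scaling and without the libraries numbered 3 (log2 0.61, adjusted p = 0.0126). FLM in cl_sml2 was lower than in either parent (log2 -0.83 over Ler, adjusted p = 0.000575; log2 -2.97 over Col, adjusted p = 9.3e-18), a call against Ler that a fit of only these groups did not make (adjusted p = 0.154). Against the MPV, the call of FLM in CL_HM3 was lost without any 1 of the 6 libraries compared (log2 0.50 to 0.64, adjusted p 0.0516 to 0.115).

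MAF2 was called lower in Ws than in Ler in the reported test only narrowly, and several alternative fits lost that call. The 2 levels given here for the Ws/Ler lines rest on that difference. At the Ler level were WL_HM1 (871, 920 and 850 normalized counts), WL_HM4 (876, 871 and 852), WL_HM5 (875, 926.5 and 821), WL_HM6 (961, 866 and 883) and WL_HM7 (940, 963 and 909). At the Ws level were WL_HM3 (565, 512 and 570.5), wl_sml2 (587.5, 594 and 558) and WL_HM2 (662, 670 and 780), of which WL_HM2 lost its call against Ler in each of 3 fits without 1 replicate number. In fits of only the groups compared, the calls of WL_HM3 and WL_HM2 against Ler were both lost (adjusted p 0.128 and 0.388). The plants of WL_HM3 and wl_sml2 all lay below every Ler library. wl_sml1, with 1134, 1176 and 1084, was called above both parents (log2 0.34 over Ler, adjusted p = 0.0132; log2 0.89 over Ws, adjusted p = 6.00e-09), where the call against Ler was lost without the libraries numbered 1 (log2 0.21, adjusted p = 0.282) or 2 (log2 0.22, adjusted p = 0.239), and in a fit of only the groups compared (adjusted p = 0.154). In Col/Ler, where the parents were not called apart, cl_sml1 (950, 1033 and 927) and cl_sml2 (1134, 1114 and 1108) lay above all 18 plants of CL_HM1 to CL_HM6 (507 to 850.5). MAF2 rose against the MPV in both, by 0.29 and 0.49 on the log2 scale (SE 0.09 each), a call that cl_sml1 lost without MPV replicate 1 (adjusted p = 0.0742) or its own replicate 2 (adjusted p = 0.0601). It fell in CL_HM1 and CL_HM2 (log2 -0.30 and -0.29), and both calls were lost without MPV replicate 3 (log2 -0.18 and -0.17, adjusted p 0.27 and 0.277). In Ws/Ler the calls of MAF2 in WL_HM1, WL_HM6 and WL_HM7 against the MPV were lost without MPV replicate 1 (log2 0.14, 0.17 and 0.23).

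**Figure D2:**
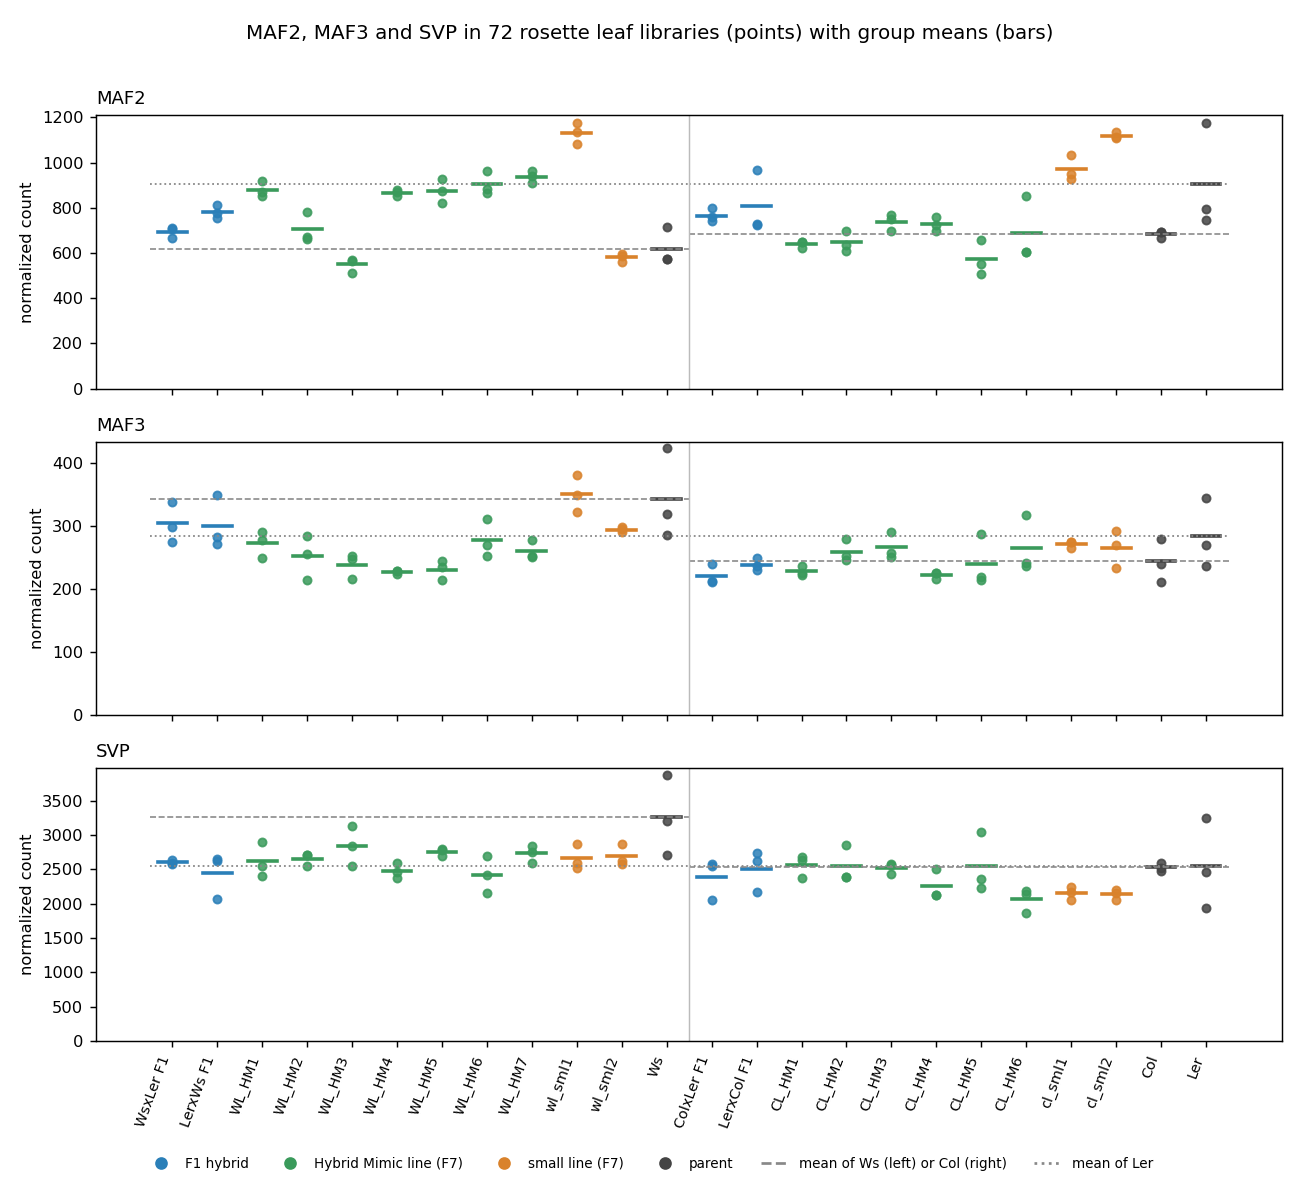
Normalized counts of MAF2, MAF3 and SVP (vertical axes) in the 72 libraries (points) with group means (bars), arranged and marked as for FRI. MAF2 was highest in wl_sml1 and cl_sml2 (means 1131 and 1119), while the group means of MAF3 stayed within 221 to 351 and those of SVP within 2062 to 3262.

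MAF5 differed between plants of a line more than any other tested member. In Col/Ler, CL_HM3 had 74.0, 147 and 89.4 normalized counts, CL_HM4 82.4, 84.4 and 116, and CL_HM6 48.7, 92.8 and 86.0, all called against Ler and not against Col. CL_HM5 had 122, 339 and 1.8, so that 1 plant held Ler-like counts beside 2 at or above Col, and CL_HM2 had 12.3, 24.3 and 80.0. CL_HM1, with 45.7, 35.4 and 7.9, was called against neither parent. The small lines cl_sml1 (7.3, 7.0 and 5.6) and cl_sml2 (0, 1.5 and 3.6) were called by edgeR against Col (log2 -3.92 and -5.81) and not against Ler, while DESeq2 called cl_sml2 below Ler as well (log2 -2.24, adjusted p = 0.0428). Without the libraries numbered 2, CL_HM2, CL_HM3, CL_HM5 and CL_HM6 were no longer called against Ler (log2 2.47 to 3.30, adjusted p 0.0702 to 0.157), and CL_HM2 was lost without any replicate number. In fits of only the groups compared CL_HM2 and CL_HM5 were also lost (adjusted p 0.129 and 0.135). Without the libraries numbered 3, CL_HM1 was called against Ler (log2 2.94, adjusted p = 0.0277). MAF5 had 2 to 17 counts in the Ler libraries and passed the filter on low counts only through groups where it was high. Its calls against the parents, here and in Ws/Ler, are therefore a description.

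In Ws/Ler both parents had few MAF5 counts, and several lines exceeded both. WL_HM7 had 89.7, 98.0 and 106 normalized counts, wl_sml1 73.3, 106 and 71.8, WL_HM1 25.1, 121 and 147, and WL_HM6 19.9, 55.1 and 46.2. The other 5 lines had means of 5.0 to 25.1, against 8.5 in Ws and 8.1 in Ler. All 12 plants of WL_HM1, WL_HM6, WL_HM7 and wl_sml1 lay above the highest library of Ws (14.4) and of Ler (13.6). So did the plants of WL_HM3 (21.8, 30.1 and 22.3) and WL_HM4 (16.6, 29.8 and 28.9), which had FRI at the Ws level. Against the MPV, MAF5 rose in 6 of 9 lines, by log2 3.60 in WL_HM1 and in WL_HM7 (SE 0.52 each), 3.40 in wl_sml1 (SE 0.52), 2.32 in WL_HM6 (SE 0.51) and 1.62 in WL_HM3 and WL_HM4 (SE 0.52 each), where the last 2 were lost with the MPV on the log scale. In this fit MAF5 reached 50 counts only in libraries of WL_HM1, WL_HM6, WL_HM7 and wl_sml1, so that it was tested only through lines where it was high, and these calls are a description. WL_HM3 was also lost without any 1 of its 6 libraries (log2 1.47 to 1.73), and WL_HM4 without its replicate 2 or 3 or MPV replicate 2 (log2 1.47 to 1.56). MAF5 was called above both parents in WL_HM1, WL_HM7 and wl_sml1, of which WL_HM7 was lost against Ler without the libraries numbered 1 or 2 (log2 3.16 and 3.58, adjusted p 0.0515 and 0.0527) and wl_sml1 against Ws without those numbered 2 (log2 2.89, adjusted p = 0.0549). WL_HM6 was called by edgeR above Ws and not above Ler, where DESeq2 called it as well (log2 2.30, adjusted p = 0.0324). Its call against Ws was lost without the libraries numbered 2 or 3 (log2 1.74 and 1.89) or the 3 libraries with most floral and apex counts (log2 1.95, adjusted p = 0.0851). WL_HM1, WL_HM6, WL_HM7 and wl_sml1 were also the 4 lines with FRI at the Ler level, a match noticed after the values were seen, and over the 9 Ws/Ler lines the log2 CPM of both genes had a Pearson r of -0.83, against 0.19 over the 8 Col/Ler lines. The points of such a correlation share libraries and sister plants.

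The group means of MAF3 stayed within 221 to 351 and those of SVP within 2062 to 3262. MAF3 fell against the MPV in WL_HM2, WL_HM3, WL_HM4 and WL_HM5 (log2 -0.31, -0.37, -0.47 and -0.43, SE 0.11 each, largest adjusted p = 0.0378) and, with all libraries, in no Col/Ler line, with 227 ± 3 normalized counts in WL_HM4 against 307 ± 31 in the MPV. The call in WL_HM2 was lost without its replicate 1 (log2 -0.21, adjusted p = 0.216) or 3, MPV replicate 2 or 3, or the 3 libraries with most floral and apex counts (log2 -0.29, adjusted p = 0.0592), and that in WL_HM3 without its replicate 2 (log2 -0.30, adjusted p = 0.115) or MPV replicate 2 or 3. Without MPV replicate 2, MAF3 was called lower in CL_HM1 (log2 -0.30, adjusted p = 0.0463) and CL_HM4 (log2 -0.34, adjusted p = 0.0225). Against each parent, MAF3 was called higher in 1 and lower in 8 of 18 Ws/Ler tests, and lower in 1 of 16 in Col/Ler. Its calls below Ws in WL_HM1, WL_HM2, WL_HM3, WL_HM5, WL_HM6 and WL_HM7 were lost without the libraries numbered 2 (log2 -0.40 to -0.11). The calls above Ler in wl_sml1 and below Ler in WL_HM4 and CL_HM4 were lost without those numbered 1. SVP was called against the MPV in 0 of 17 lines (log2 -0.30 to 0.02), where 5 passed an unadjusted p at or under 0.05 and DESeq2 called WL_HM6 and CL_HM6 (log2 -0.24 and -0.29). Without MPV replicate 1, SVP was called lower in WL_HM4, WL_HM6, CL_HM6, cl_sml1 and cl_sml2 (log2 -0.39 to -0.32). Against the parents, SVP was lower than in Ws in WL_HM1, WL_HM2, WL_HM4 and WL_HM6 (log2 -0.43 to -0.30) and lower than in Col in CL_HM6 (log2 -0.32), and the reported edgeR test called it against Ler in no line. SVP was called against Ler in CL_HM6 by DESeq2 (log2 -0.32, adjusted p = 0.046) and with 50 counts required in every library (log2 -0.31), in wl_sml1 and wl_sml2 with total-count scaling (log2 0.27 and 0.34), in WL_HM3 and wl_sml2 without the libraries numbered 3 (log2 0.46 and 0.34) and in cl_sml2 without those numbered 1 (log2 -0.39). The 4 calls against Ws were lost without the libraries numbered 2 (log2 -0.26 to -0.17) and that against Col without any replicate number. The lowest group mean of SVP was 2062 ± 178 in CL_HM6 and its highest 3262 ± 584 in Ws, so that the order of the groups between them lay mostly within the spread of single groups. Replicate 2 of WL_HM6 and of LerxWs, which had the highest floral and apex sums, had 2150 and 2067 SVP counts, the lowest of the Ws/Ler F1 hybrids and lines. The third library with high floral and apex counts, replicate 2 of wl_sml2, had 2624, between the other 2 libraries of its line (2861 and 2577). The part of tissue in these values was not tested. Over the 24 groups the gene most like SVP was AGT on the same chromosome (r = 0.88), and those most like MAF3 were AT3G57930 (r = 0.85), TLP9 (r = 0.84) and AT3G56880 (r = 0.82).

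Over all lines, 31 of 54 tests of a member against the MPV were called in Ws/Ler (20 up, 11 down) and 17 of 36 in Col/Ler (9 up, 8 down), and 4 of 12 in CL_HM5 and CL_HM6. Of all gene and line tests, 25.2% were called in Ws/Ler, 30.6% in Col/Ler and 24.8% in CL_HM5 and CL_HM6. In a single line, 11.9% to 41.2% of all genes were called in Ws/Ler and 14.6% to 50.9% in Col/Ler. The median log2 fold change over the member tests was 0.01 in Ws/Ler and -0.01 in Col/Ler, where the median of all genes lay between -0.01 and 0.01 in each line. Against each parent, 49 of 108 member tests in Ws/Ler were called, and 34 of 96 tests in Col/Ler, beside 31.8% and 26.5% of all tests. The lines of a system share their MPV and parent libraries, so these tests are not independent of each other.

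**Figure D3:**
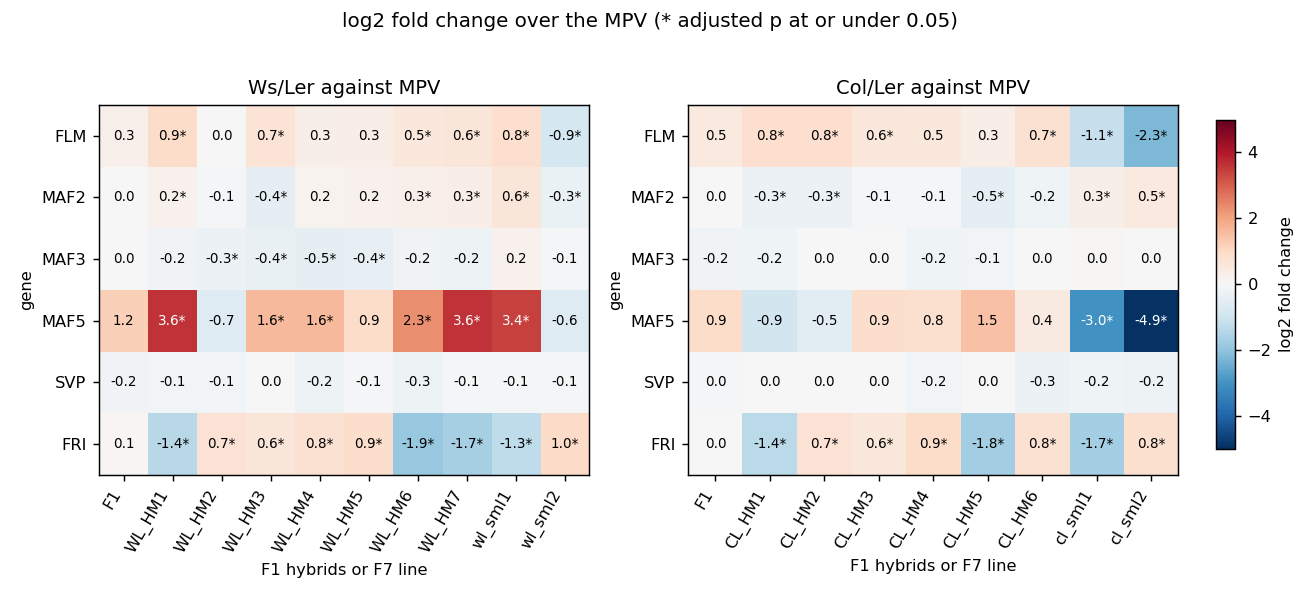
Log2 fold change of each tested member (down the page) over the MPV in the F1 hybrids and each F7 line (across), from edgeR, with an asterisk where the adjusted p is at or under 0.05. FRI carries an asterisk in all 17 lines and in neither F1, and SVP carries none.

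The genes beside a member give a view of the parental origin of its region that does not use the member's own counts. Tested genes on either side that differed at least 2-fold between the parents were taken from the parent libraries alone, and each line was placed by their median position between Ler (0) and the other parent (1). Within 15 tested genes on each side, FRI had 1 such neighbour in each system, which lay on the side FRI took in 8 of 9 Ws/Ler lines and 6 of 8 Col/Ler lines. Within 30 genes on each side it had 5, whose median lay on the side of FRI in 9 of 9 Ws/Ler lines and 8 of 8 Col/Ler lines. The 30-gene window, the alternative of the 2, is used for the positions that follow, since the narrower one held 1 or 2 neighbours a gene. Of the 50 genes whose group means followed FRI most closely over the 24 groups, 44 lie on chromosome 4, which holds 15.2% of the genes tested. The 3 closest were AT4G01915 (r = 0.96), AT4G00955 (r = 0.95) and AT4G01920 (r = 0.95), which lie 52 to 188 annotated genes from FRI.

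For the MAF cluster, the neighbours lay on the side of MAF2 in 8 of 9 Ws/Ler lines (6 neighbours) and on the side of MAF5 in 7 of 8 Col/Ler lines (7 neighbours), against 8 of 9 and 5 of 8 with the 15-gene window. The exceptions were WL_HM2 and CL_HM1, each with the member near the middle. The side of MAF2 rests on a parental difference that several alternative fits did not call. MAF4, untested, was near Ler in CL_HM3 and CL_HM4, where MAF5 was at the Col level and 4 and 5 of 7 neighbours lay closer to Col. The gene most like MAF2 was FAS2, which encodes a chromatin assembly subunit and lies 60 genes away (r = 0.82 over 24 groups).

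FLM stood apart from its surroundings. Its neighbours were on the Ler side in all 9 Ws/Ler lines (median positions -0.12 to 0.38, 5 neighbours). FLM was called against Ler and not against Ws in 7 of these lines, and lay between the parents in WL_HM2. In CL_HM1, CL_HM2, CL_HM3 and CL_HM6 the neighbours lay at -0.37 to -0.15 while FLM was at the Col level, and in cl_sml1 and cl_sml2 they lay at 1.10 and 0.87, close to Col, while FLM was at or below the Ler level. FLM and its neighbours were on the same side in 1 of 9 Ws/Ler lines and 2 of 8 Col/Ler lines, with 15 as with 30 genes on each side. The neighbours number 4 to 5, and which of them or FLM follows the DNA of the region cannot be told apart from these counts. The genes most like FLM over the 24 groups were AT1G10610 (r = 0.90), AT5G20450 (r = 0.89) and scpl4 (r = 0.87), and FLM itself was second closest to MAF5 (r = 0.77).

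**Figure D4:**
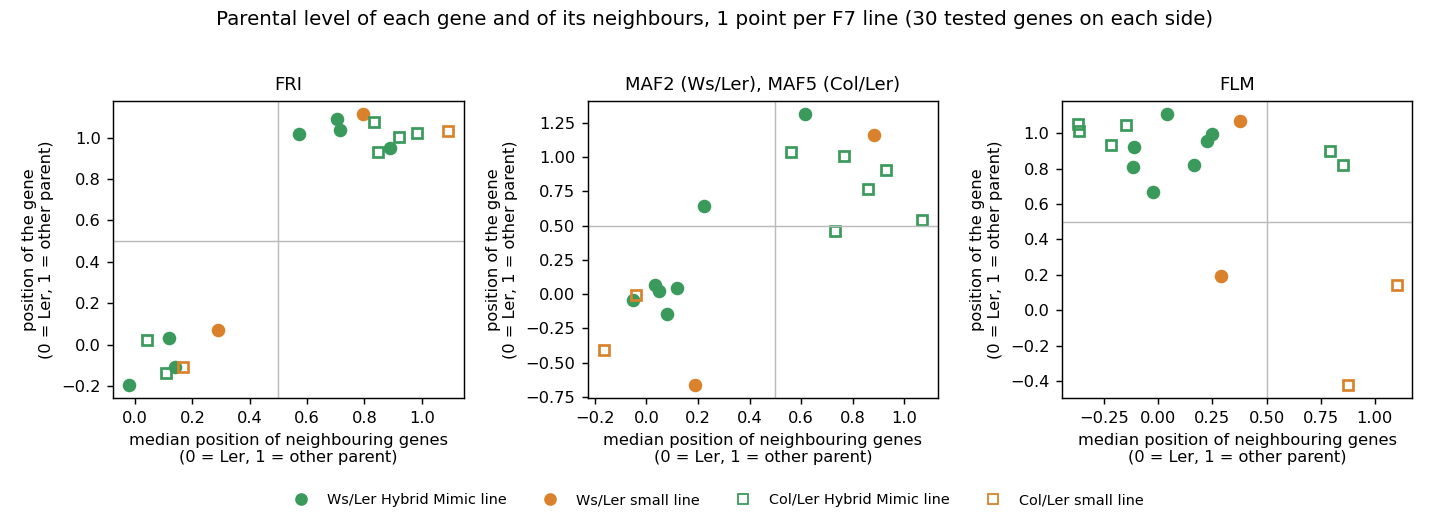
Position of each gene (vertical axis) against the median position of its neighbouring genes within 30 genes on each side (horizontal axis) on a scale where 0 is the Ler mean and 1 the mean of the other parent, 1 point per F7 line. The lines of FRI sit in the lower left and upper right, while for FLM 12 of 17 lines have FLM high with neighbours on the Ler side.

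The Hybrid Mimics were then compared with the small lines, the groups that differ in size and flowering. In Col/Ler, FLM averaged 653 normalized counts over CL_HM1 to CL_HM4 against 134 in the small lines (log2 2.38, SE 0.13, adjusted p = 2.97e-22). MAF5 was higher by 4.03 on the log2 scale (SE 0.62, adjusted p = 1.53e-07), FRI by 0.65 (SE 0.14, adjusted p = 4.05e-05) and SVP by 0.20 (SE 0.08, adjusted p = 0.0223, but log2 -0.05 with adjusted p = 0.54 under total-count scaling), and MAF2 was lower by 0.61 (SE 0.07, adjusted p = 4.35e-11). MAF5 had 0 to 8 counts in the libraries of cl_sml1 and cl_sml2. It passed the filter on low counts only through groups where it was high, so its call is a description. In Ws/Ler, FLM was higher by 0.52 (SE 0.10, adjusted p = 2.27e-05) and MAF3 lower by 0.37 (SE 0.07, adjusted p = 6.14e-06), and the other 4 were not called. These 2 of 6 and 5 of 6 members stand beside 70.9% and 66.8% of all genes called, and 2 of 6 is below that share. Scaled by total counts, 5 of 6 were called in each system (1 up and 4 down in Ws/Ler, 3 up and 2 down in Col/Ler), and of all genes 4188 rose and 9472 fell in Ws/Ler and 3543 rose and 9915 fell in Col/Ler, against 6368 and 6607, and 5855 and 6368, with TMM.

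In that fit the plants are the replicates, and with lines as the unit the design is small. By an exact two-sided permutation test over line means, MAF3 in Ws/Ler reached p = 0.0278, the smallest that 7 against 2 lines allow, and FLM in Ws/Ler had p = 0.25, with wl_sml1 at the Ws level. In Col/Ler, with 4 against 2 lines, FLM, MAF2, MAF5 and SVP each reached the smallest exact permutation p possible, 0.0667, and FRI had p = 0.667. FRI was at the Ler level in 1 of these 4 Hybrid Mimics and 1 of the 2 small lines. The permutation result of MAF5 carries the same limit from the filter on low counts as its call. The call of SVP in Col/Ler was also lost without the libraries numbered 1 or 2 (adjusted p = 0.188 and 0.119). Total-count scaling moved the median of all genes by -0.22 in Ws/Ler and -0.24 in Col/Ler.

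FT, the mobile signal for flowering, and SOC1, both targets of FLC, FLM and SVP, were lower on average in the Hybrid Mimics of both systems. FT was lower by 4.08 on the log2 scale in Ws/Ler (SE 0.29, adjusted p = 5.82e-18) and by 4.21 in Col/Ler (SE 0.36, adjusted p = 1.09e-14), and SOC1 by 0.95 (SE 0.10, adjusted p = 2.95e-12) and 1.14 (SE 0.11, adjusted p = 5.05e-13). Plants are the replicates in these tests. By the exact permutation test over line means, FT had p = 0.0278 in Ws/Ler and 0.0667 in Col/Ler, the smallest possible in each. SOC1 had p = 0.0556 and 0.0667 by that permutation test. FT had 3.4 to 23.0 normalized counts on average in 6 of 7 Ws/Ler Hybrid Mimics and in CL_HM1, CL_HM2, CL_HM3 and CL_HM6, against 122 and 683 in wl_sml1 and wl_sml2 and 299 and 196 in cl_sml1 and cl_sml2. WL_HM3 was the exception in its system, with 43.7, 126 and 254, and CL_HM4 and CL_HM5 had means of 73.6 and 58.0. SOC1 was also high in WL_HM3, with 2362, 3544 and 4036, against 2667, 3181 and 2712 in wl_sml1. FLM did not follow FT line by line, as wl_sml1 had FLM at 649 ± 11 with FT at 122 ± 23, and WL_HM3 had FLM at 589 ± 55 with FT at 141 ± 106. Over the 24 groups the log2 CPM of FLM and FT had r = -0.57, and FLM and SOC1 had r = -0.50. Over the 9 Ws/Ler lines FLM had r = -0.60 with FT and -0.30 with SOC1, and over the 8 Col/Ler lines r = -0.79 with FT and -0.95 with SOC1, as descriptions over groups that share parents, with both small lines at 1 end in Col/Ler.

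**Figure D5:**
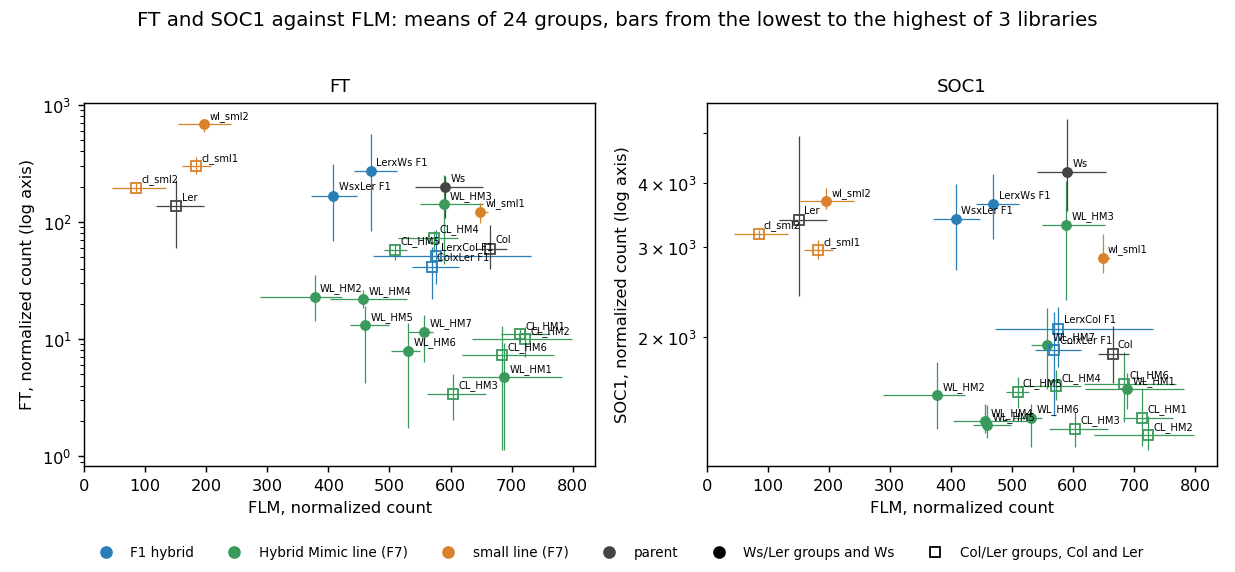
Mean normalized counts of FT (left) and SOC1 (right), both on log axes, against those of FLM in the 24 groups, with bars from the lowest to the highest of 3 libraries. The 3 small lines with low FLM (85.1 to 196) have FT at 196 to 683, while wl_sml1 lies at high FLM (649) and FT of 122.

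Of 56 genes of the pathway list, FT and SOC1 among them, 37 of 50 tested were called between Ws/Ler Hybrid Mimics and small lines (16 up, 21 down) and 31 of 50 in Col/Ler (13 up, 18 down), shares near those of all genes (scaled by total counts, 6 up and 30 down, and 4 up and 31 down). Among the 9 tested floral integrators, which include FT and SOC1, 6 fell and 2 rose in Ws/Ler (median log2 -1.30) and 5 fell and 1 rose in Col/Ler (median -1.14), where the median of all genes was -0.01 and -0.02. FUL, a MADS-box gene of the floral transition, fell by 2.61 (SE 0.17) and by 2.18 (SE 0.21) on the log2 scale. FPA, an RNA-binding protein of the autonomous pathway, fell by 0.79 and the Polycomb gene SWN by 0.50 in Ws/Ler. In Col/Ler the repressor TEM1 fell by 1.03, and VIP6 of the PAF1 complex rose by 0.33, a call lost with total-count scaling (log2 0.09, adjusted p = 0.139). The FRI complex genes fell or were not called, with 3 of 4 down in Ws/Ler (median log2 -0.32) and 2 of 4 down in Col/Ler (median -0.21). Of all genes, 70.9% and 66.8% were called in these comparisons, so the counts are no result about the complex. Scaled by total counts, 3 of 4 and 4 of 4 were down (median log2 -0.55 and -0.45), where the median of all genes was -0.23 and -0.26.

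Between the parents and in the F1 hybrids, the list was read beside the share of all genes called. Ws against Ler gave 1 of 47, where 20.7% of all genes were called, the SWR1 complex gene SEF (log2 1.08, SE 0.17, adjusted p = 0.00237). Col against Ler gave 5 of 47, beside 14.4% of all genes, among them the repressors TOE2 (log2 0.73, SE 0.12) and SNZ (log2 -0.95, SE 0.16) and the FT relative TSF, which averaged 0.36 normalized counts in Col and 29.03 in Ler. The Ws/Ler F1 gave 0 of 50 against the MPV in edgeR (2 at an unadjusted p at or under 0.05, and 0 by DESeq2), beside 0.281% of all genes. The Col/Ler F1 gave 1 of 47, beside 0.407%, which was SEP3, with 20.2 normalized counts against 101 in the MPV (log2 -2.31, SE 0.27, adjusted p = 5.63e-05). SEP3 is also 1 of the 7 floral and apex markers. FT was not called in the Col/Ler F1, but was called lower without LerxCol replicate 3 (log2 -1.35, adjusted p = 0.0227) or MPV replicate 2 (log2 -1.39, adjusted p = 0.0324).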

How the data were processed

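The authors sequenced paired-end libraries, aligned the reads with STAR 2.5.3a to TAIR10 with the Araport11 annotation and deposited raw read counts per gene from STAR's gene counting, without normalization. The strand setting of the counting is not given in the sources used here. All 72 count columns were mapped to groups by the labels, and no row without a gene name entered. The study's methods describe the 3 libraries of a group as biological replicates, each a pool of 3 plants in the parents and F1 hybrids.

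Counts were scaled by TMM and tested with the quasi-likelihood test of edgeR 4.0.16 (limma 3.58.1, R 4.3.3) on genes that reached 50 counts in 1 or more libraries of the fit, with Benjamini-Hochberg adjustment over all genes tested and a threshold of 0.05. The fits held the 9 parent libraries, 36 Ws/Ler or 27 Col/Ler libraries with 3 MPV libraries (33 with CL_HM5 and CL_HM6), or all 72. MPV library n added the counts of replicate n of both parents, scaled to their mean library size. A line was put at the level of a parent when it was called against the other parent and not against the first. Group correlations and positions used log2 CPM with a prior count of 2, and correlations are descriptions. Both tests were tested on simulated counts with known changes.

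The members, pathway list (FLX left out, since the annotation gives its locus another symbol) and markers were chosen with earlier results of these data known. The genes named are the members, FT and SOC1, the 3 pathway genes of lowest adjusted p per comparison, and the 3 genes most alike by r. Alternatives were DESeq2 1.42.0, RLE and total-count scaling, other filters, the replicate block, fits of only the groups compared, the MPV on the log scale, CL_HM5 and CL_HM6 among the Hybrid Mimics and each library left out (in the 72-library fit, each replicate number). Libraries differed by far more than counting noise, so none was taken as a duplicate. Gene order, exon lengths and opposite-strand overlaps came from the TAIR10.1 annotation, by locus, and no reference sequence was used.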

Additional observations from a re-analysis of the deposited data

Results flagged for a closer look

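In the 6 Col/Ler F1 libraries, MAF2 in LerxCol replicate 1 stood apart at 965.7 normalized counts, against 722.5 to 798.2 in the other 5. In the 6 Ws/Ler F1 libraries, SVP in LerxWs replicate 2 stood apart at 2067 normalized counts, against 2580 to 2643 in the other 5, and this was also 1 of the 3 libraries with most floral and apex marker counts. Both gaps exceeded Dixon's 95% critical value for 6 samples (0.625). Of the 17 sets of 6 libraries tested in this way, chance would give about 1 in 20.

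The difference between Hybrid Mimics and small lines was itself compared between systems, Ws/Ler minus Col/Ler, in a contrast added after the data were seen. It differed by -1.86 on the log2 scale in FLM (SE 0.16, adjusted p = 2.38e-14 in edgeR), by -3.54 in MAF5 (SE 0.82, adjusted p = 0.000405), by -0.76 in FRI (SE 0.18, adjusted p = 0.000643) and by 0.58 in MAF2 (SE 0.09, adjusted p = 1.13e-06), and not in MAF3 or SVP. Of all 18297 genes, 40.3% were called in this contrast, beside 4 of 6 members. FLM and MAF5 were higher in Hybrid Mimics over small lines by more in Col/Ler than in Ws/Ler, where wl_sml1 carried FLM at the Ws level. Plants are the replicates in this contrast, with 2 small lines in each system, and no test over lines was run for it. MAF5 was again tested through groups where it was high.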

How the results depend on the processing

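Most calls of single members kept their direction and side of the threshold. Requiring at least 50 counts in every library left fewer members to test and gave 1 call for Col against Ler (3 in the reported test), 0 for Ws against Col (1), 18 and 9 for Ws/Ler and Col/Ler lines against the MPV (31 and 17), 2 for CL_HM5 and CL_HM6 (4) and 21 for Col/Ler lines against each parent (34). With the MPV on the log scale, 1 member was called in each F1 (0) and 7 in CL_HM5 and CL_HM6 (4). Total-count scaling gave 5 calls between Ws/Ler Hybrid Mimics and small lines (2), with MAF2, SVP and FRI added, and turned the sign of SVP in Col/Ler (log2 -0.0483, adjusted p = 0.54); the cause was not tested. DESeq2 called 34 and 18 members in lines against the MPV, and of all genes 183 in the Ws/Ler F1 (51 in edgeR, 870 with the MPV on the log scale, 22 with 50 counts in every library) and 149 in the Col/Ler F1 (73, 457 and 35; 39 in a fit of only these groups). With 1 library or replicate number left out, calls ran from 2 to 3 for Ws against Ler, 24 to 31 and 12 to 18 for lines against the MPV, 2 to 5 for CL_HM5 and CL_HM6 (2 without MPV replicate 3), 32 to 53 and 28 to 32 for lines against each parent (32 in Ws/Ler without the libraries numbered 2), and 4 to 5 for Col/Ler Hybrid Mimics against small lines; the F1 counts and the reciprocal crosses stayed at 0. With the replicate number as a block, Ws against Ler gave 2 calls and lines against the MPV 30 and 16, where MAF2 for Ws against Ler and in WL_HM1 and FRI in CL_HM3 were lost and no other call changed; the numbers did not pair the libraries (same-numbered deviations correlated at a median of 0.016, and 32 of 72 libraries best with their own number). Of 51 line and gene pairs given a parental level, 0 changed with the block or RLE, 2 with DESeq2, 3 with total-count scaling, 4 to 7 with a replicate number left out, and 7 of 41 in fits of only the groups compared. Without the 3 libraries with most floral and apex counts, an alternative chosen after seeing the data, Ws/Ler lines gave 31 calls against the MPV and 47 against the parents, and 0 of 27 levels changed. FLC and MAF4 reached 50 counts in no library, and MAF4 was tested only without that filter.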
